A study of Mus musculus with 55 samples.

Results

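The nuclear genes for the subunits of oxidative phosphorylation were followed across 24 RNA sequencing libraries of mouse oocytes. They were taken by symbol from the 33924 features of the deposited count table (Nduf subunits, Uqcr, Sdha to Sdhd, Cox4 to Cox8 and Atp5, without symbols marked -ps and Ndufaf assembly factors), which gave 86 genes. Of these, 36 belong to complex I, 4 to complex II, 8 to complex III, 18 to complex IV with Ndufa4, and 16 to complex V. The 16 still count Atp5l2, which RefSeq lists as Atp5l2-ps, the symbol of a pseudogene. Cox7a2l, which joins complexes into supercomplexes, was kept apart, as were 3 genes that the symbol rule takes in although they encode no subunit (Cox4nb, Atp5s and Atp5sl). Cox8b had no count in any library of the first table, and Ndufb8 had no feature with the same exons in the second table, where 85 members were measured.

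The series holds 55 samples, 26 of them RNA sequencing libraries, and asks how RNA G-quadruplexes and the helicase DHX36 (also called RHAU), which unwinds them, bear on gene expression in oocytes. In the growing oocyte experiment, 3 libraries of Dhx36 sko oocytes stood against 3 of control oocytes. In a second experiment, rhau_sko stood against c with and without DRB, an inhibitor of the kinase CDK9 and so of transcription elongation, and 6 libraries were used: rhau_sko replicate 5 and rhau_sko_DRB replicates 7 and 8, against c replicates 1 and 2 and c_DRB replicate 3. Germinal vesicle (GV) oocytes labelled cPDS for 12 h, where cPDS (carboxypyridostatin) is a ligand of RNA G-quadruplexes, stood against GV_C oocytes, with 3 libraries each. In the fourth experiment 3 libraries labelled Dhx36 and Trim21 at 3 h stood against 3 controls at 3 h; TRIM21 is a ubiquitin ligase used to degrade a protein that a delivered antibody binds.

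The labels give ovary as the source and oocyte as the cell type, and their protocol names Dhx36fl/fl;SKO mice beside controls. They do not expand sko, and they do not give the Cre driver, the strain, the age of the mice or the number of oocytes per library. They also do not say whether replicates came from separate animals, so p-values measure the spread between these libraries, which may be technical.

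Oxidative phosphorylation is carried out in the inner mitochondrial membrane. Complexes I and II pass electrons from NADH and succinate to ubiquinone, complex III passes them on to cytochrome c, complex IV hands them to oxygen, and complex V uses the proton gradient to make ATP. All subunits of complex II and most of the others are encoded in the nucleus, while a few of the central subunits of the other complexes come from the mitochondrial genome. Oocytes take up little glucose and burn pyruvate in their mitochondria, whose number grows with the oocyte. Nuclear respiratory factor 1 (NRF1), the ETS factor GABP and YY1 are known regulators of the nuclear subunit genes.

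The start regions of 4 members that the results turn on are shown because 3 of them carry a motif of such a regulator and the fourth the letters of a G-quadruplex. Each is a RefSeq window of build GRCm38.p6, 250 bases before to 50 after the transcription start, printed on the gene's strand with the motif in capitals. In the windows of Atp5g2 (chr15:102670998-102671297, minus strand) and Uqcrc1 (chr9:108936398-108936697, plus strand) the capitals hold the NRF1 motif on both strands. They lie before the start in Atp5g2 and after it in Uqcrc1.
Atp5g2: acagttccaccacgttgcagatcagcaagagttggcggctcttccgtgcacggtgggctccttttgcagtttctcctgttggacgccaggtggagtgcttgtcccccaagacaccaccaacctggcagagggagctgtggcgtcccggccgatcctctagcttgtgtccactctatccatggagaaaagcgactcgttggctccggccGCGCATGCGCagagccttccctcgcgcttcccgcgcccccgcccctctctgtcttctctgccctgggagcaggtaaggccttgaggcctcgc
Uqcrc1: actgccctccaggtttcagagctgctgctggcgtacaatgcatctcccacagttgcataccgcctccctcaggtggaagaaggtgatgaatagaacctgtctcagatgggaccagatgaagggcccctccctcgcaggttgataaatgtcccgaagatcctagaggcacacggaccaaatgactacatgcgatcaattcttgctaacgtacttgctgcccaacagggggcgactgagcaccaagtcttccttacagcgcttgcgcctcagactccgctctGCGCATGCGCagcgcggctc
In the window of Ndufs4 (chr13:114388045-114388344, minus strand) the capitals mark the YY1 motif, which also lies after the start.
Ndufs4: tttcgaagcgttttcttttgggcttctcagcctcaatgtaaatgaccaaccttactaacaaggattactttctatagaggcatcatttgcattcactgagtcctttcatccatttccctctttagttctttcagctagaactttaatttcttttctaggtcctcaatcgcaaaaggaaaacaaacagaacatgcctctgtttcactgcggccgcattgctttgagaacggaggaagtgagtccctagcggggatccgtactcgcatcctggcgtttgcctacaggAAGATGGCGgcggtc
In the window of Cox7a2l (chr17:83514284-83514583, minus strand) the capitals mark the G-quadruplex pattern, nearly all of it before the start. It is thus a pattern in DNA, and whether the transcript holds a G-quadruplex was not tested.
Cox7a2l: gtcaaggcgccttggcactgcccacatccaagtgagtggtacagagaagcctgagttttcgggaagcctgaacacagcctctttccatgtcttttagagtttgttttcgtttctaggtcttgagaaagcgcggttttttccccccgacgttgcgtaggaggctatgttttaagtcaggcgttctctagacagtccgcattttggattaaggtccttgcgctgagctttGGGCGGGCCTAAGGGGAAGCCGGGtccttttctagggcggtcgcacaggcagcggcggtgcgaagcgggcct

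All 86 members matched a RefSeq gene and 70 had such a window. The NRF1 letters GCGCATGCG were in 8 of the 70 windows (11.4%), on either strand, against 1.95% of the 27025 genes with a window. AAGATGGCG, the YY1 letters, were in 8 (11.4%), against 1.64% of all genes, and the ETS letters CCGGAAG were in 16 (22.9%), against 9.93%. The G-quadruplex pattern, 4 runs of GGG parted by 1 to 7 bases, was in 15 (21.4%), against 20.4% of all genes. These shares are a description of letters in a window. The members share a function that the other genes need not have, and base composition was not compared. Ndufs5, Atp5o and Sdha, named below among the largest falls, had none of these letters in their windows.

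Total counts ran from 7452742 to 65444652 per library, with the lowest in a Trim21 library. Dhx36 read 2.17 ± 0.582 normalised CPM (counts scaled to 1000000 per library) in growing sko oocytes and 8.77 ± 1.89 CPM in their controls, 5.95 ± 1.61 CPM in rhau_sko and 42.6 ± 4.59 CPM in c, 35.5 ± 3.72 CPM in cPDS and 21.5 ± 1.30 CPM in GV_C, and 7.72 ± 1.33 CPM in Trim21 and 30.5 ± 1.33 CPM in the Trim controls (SD, n = 3 each). All 11 oocyte markers were detected in every one of these libraries and took 0.777% to 3.54% of counts. Granulosa and cumulus markers took 0.00134% to 0.0135%, with Ptx3 or Amh at 0 in every library. Levels are relative to the other transcripts of a library, and fewer cells of a type and less RNA per cell cannot be told apart.

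The members together took 0.495% to 0.621% of counts in the 6 growing oocyte libraries, 1.10% to 1.50% in the second experiment, 1.08% to 1.22% in the GV libraries and 1.42% to 1.73% in the Trim libraries. Scaled by exon length to TPM (the same scale after division by length), 75 of the 85 members compared had a lower mean level in growing controls than in GV_C, 21 of them more than 10 times lower, and the median ratio of GV_C to growing control was 3.22. Stage and experiment cannot be told apart in that comparison, so it has no test. The members also differed in order. Cox7a2l had the highest level per length among members in growing control oocytes, at 987 ± 98.9 TPM, followed by Sdhd (membrane anchor of complex II) at 793 ± 32.3 TPM and Ndufb11 (membrane arm of complex I) at 490 ± 106 TPM (SD, n = 3). Ndufa2, an accessory subunit of complex I, led in GV_C at 1488 ± 104 TPM and in the Trim controls at 2607 ± 229 TPM (SD, n = 3 each), against 49.9 ± 11.2 TPM in growing controls. At the low end, Cox7b2 was at 0 and Cox7a1, the heart and muscle isoform, averaged 0.0655 TPM in growing controls.

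**Figure D1:**
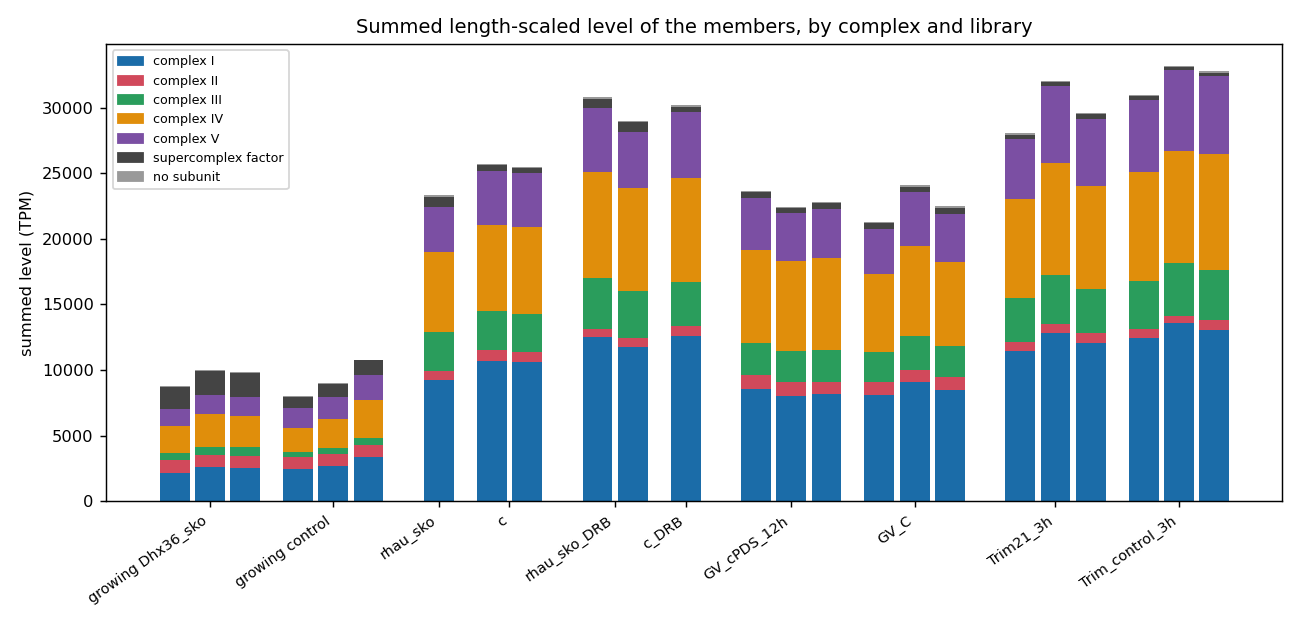
Summed length-scaled level of the members in each library (TPM, y axis), stacked by complex, with libraries grouped on the x axis and no error bars because each bar is 1 library. The growing oocyte bars sum to 7997 to 10790 TPM, below every bar of the other experiments.

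In growing oocytes without normal Dhx36 levels, complex I and complex V members fell more often than they rose, while a few members of complexes III and IV rose strongly. Of the 83 members tested, 26 were lower in sko (31.3% of them, against 25.2% of the 14081 genes tested) and 7 were higher (8.43%, against 28.5%). Calls in either direction numbered 33 (39.8%), against 53.7% of all genes. Their median log2 fold change was -0.16, against 0.02 over all genes. Complex I had 13 of 36 members lower and 1 higher, complex II 1 of 4 lower, complex III 1 of 8 lower and 2 higher, complex IV 4 of 15 tested lower and 1 higher, and complex V 7 of 16 lower and 1 higher. Of 20 subunits picked as core or catalytic, 7 were lower and 1 was higher. This set includes Cox4i1, Cox5a and Cox5b, which are not core subunits of complex IV, and leaves out Cyc1 of complex III.

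Uqcrc1 (mm9, chromosome 9, 108838661 to 108851685, plus strand), a core protein of complex III, showed the largest rise. Its normalised counts were 56.1, 49.0 and 56.9 CPM in the sko libraries, against 6.84, 7.10 and 6.66 CPM in the controls. The libraries of each genotype lay close together and the groups far apart. The log2 fold change was 2.98 ± 0.14 (SE; edgeR adjusted p = 1.93e-10), a 7.86-fold higher level. Cox4i2 (chromosome 2, 152579909 to 152590773, plus strand), the second isoform of complex IV subunit 4, known from lung and from the response to low oxygen, was the next. It read 3.92, 5.18 and 7.16 CPM in sko, against 0.665, 0.999 and 0.943 CPM in control. Every sko library exceeded every control, although the level stayed low in both. The log2 fold change was 2.64 ± 0.30 (SE; edgeR adjusted p = 2.41e-06). Cox4i2 made up 3.96% to 5.81% of the summed length-scaled level of the 2 subunit 4 genes in sko, against 0.554% to 0.775% in control, and Cox4i1, at a log2 change of -0.28 ± 0.14 (not called), made up the rest.

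Uqcrb, the small ubiquinone-binding protein of complex III, read 37.9, 45.0 and 41.2 CPM in sko, against 17.8, 21.4 and 27.8 CPM in control (log2 fold change 0.89 ± 0.16, SE). Cox7a2l, already the highest member per length, read 749, 837 and 839 CPM in sko, against 512, 524 and 557 CPM in control, with no overlap (0.61 ± 0.12, SE). Its level per length was 1759 ± 103 TPM in sko and 987 ± 98.9 TPM in control (SD, n = 3 each). The rest of the members that rose were Atp5f1 (subunit b of complex V, 0.38 ± 0.12), Ndufa12 (an accessory subunit of complex I, 0.52 ± 0.19) and Cox4nb (0.80 ± 0.15), which despite its old symbol encodes a part of the endoplasmic reticulum membrane complex. The call for Ndufa12 was lost in 4 of the 10 alternative settings, with a lowest value of 0.33 without control replicate 2 (edgeR adjusted p = 0.173), where that for Atp5f1 was also lost (0.35, edgeR adjusted p = 0.0616).

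Among the members that fell, Ndufs4 (chromosome 13, 115078003 to 115178302, minus strand), an accessory subunit of complex I whose loss causes Leigh syndrome in humans, changed most. It read 22.0, 26.1 and 21.7 CPM in sko, against 77.1, 69.2 and 87.0 CPM in control. No sko library came near the controls, and the log2 fold change was -1.74 ± 0.14 (SE; edgeR adjusted p = 4.43e-08). Atp5o (chromosome 16, 91684643 to 91931932, minus strand) encodes the oligomycin sensitivity protein, which ties the catalytic head of complex V to its stalk. It read 36.3, 44.0 and 39.2 CPM in sko, against 90.5, 86.0 and 119.6 CPM in control (log2 fold change -1.31 ± 0.14). The annotated exons of Atp5o overlap those of Donson and of 2 further genes, so its counts are uncertain.

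Ndufa9, an accessory subunit of complex I near the ubiquinone site, read 85.8, 92.0 and 71.5 CPM in sko, against 215.6, 195.7 and 186.2 CPM in control (log2 fold change -1.26 ± 0.13, SE), and the groups were clearly apart. Ndufc2 and Ndufb3 of the membrane arm each fell by 0.93 on the log2 scale, and the flavin-binding Ndufv1, where NADH is oxidised, fell by 0.65. In complex V, the catalytic beta subunit Atp5b read 374, 343 and 369 CPM in sko, against 651, 640 and 516 CPM in control (-0.73 ± 0.13), and Atp5a1 and Atp5c1, the alpha and gamma subunits, fell by 0.43 and 0.53. The call for Atp5a1 was lost without control replicate 2 (-0.35, edgeR adjusted p = 0.0794) and without sko replicate 5 (-0.38) or 6 (-0.37). Of the 26 members called lower, 24 had every sko library below every control library, and Ndufs5 and Cox7a2 had an overlap. All 7 called higher had none. Over all genes, 94.9% of those called lower and 97.6% of those called higher had no overlap.

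The scaling set how many members counted as lower. Scaled by total counts only, without TMM factors, 15 were lower and 8 higher, and the median of all genes moved to 0.21 and that of the members to 0.02. Without control replicate 3, 11 members were higher. Granulosa and cumulus markers took 0.00617% to 0.00699% of counts in sko, against 0.00134% to 0.00161% in control, with Ptx3 at 0 in all 6 libraries. Of their 7 tested genes 2 were higher and 0 lower. Fshr averaged 37.1 CPM in sko and 0.342 CPM in control, and Cyp19a1 20.1 CPM and 9.28 CPM, so the higher share lay largely in single genes. Theca and stroma markers took 0.000502% to 0.000885% in sko, against 0.000273% to 0.000323% in control. Whether these marker differences reflect other cells, and their part in the members' changes, was not tested.

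**Figure D2:**
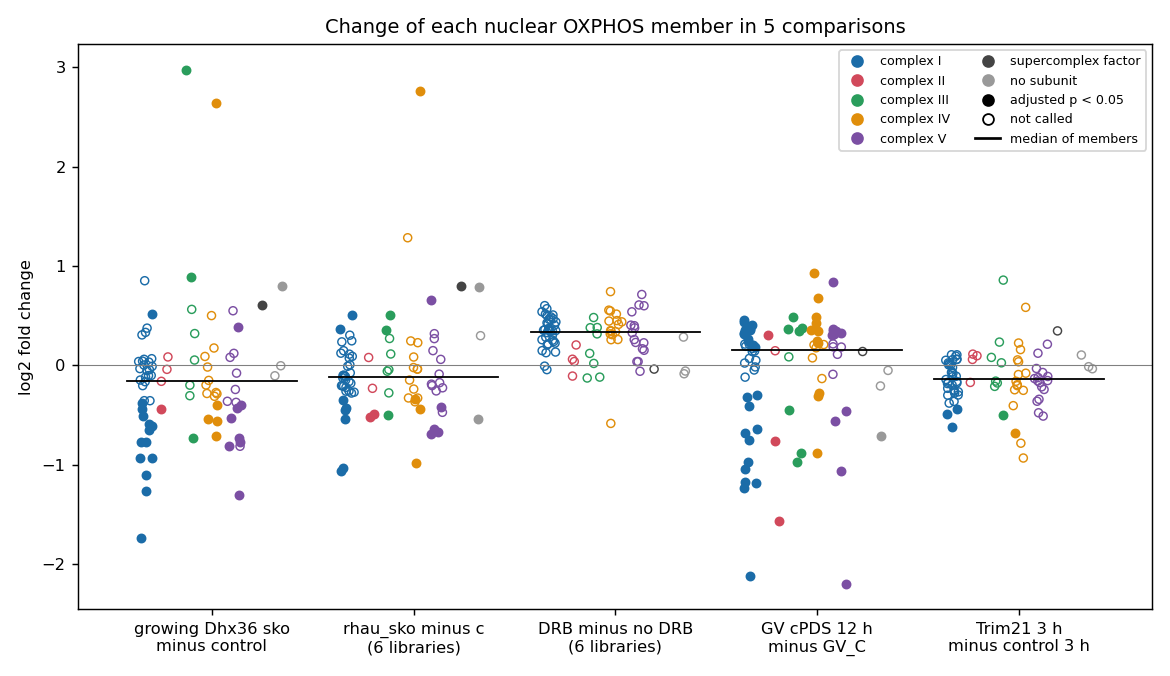
Log2 fold change (y axis) of each member in 5 comparisons (x axis), with 1 point per gene coloured by complex, filled where the edgeR adjusted p was under 0.05, and a black line at the median of the members. In growing oocytes Uqcrc1 and Cox4i2 stand alone above 2, and in the cPDS comparison the low tail reaches -2.20 while no member exceeds 0.93.

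In the second experiment, too, more members were lower than higher in sko. Of 84 members tested in the 6 libraries, with DRB as a term, 17 were lower (20.2%, against 16.8% of the 16784 genes tested) and 8 were higher (9.52%, against 19.2%). Either direction came to 25 (29.8%), against 36.0% of all genes. The members' median was -0.12, against 0.01 over all genes. Complex I had 6 of 36 lower and 2 higher, complex II 2 of 4 lower, complex III 1 lower and 2 higher of 8, complex IV 3 lower and 1 higher of 16 tested, and complex V 4 lower and 1 higher of 16.

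Cox4i2 rose most here. It read 20.8 CPM in rhau_sko replicate 5 and 27.2 and 25.5 CPM in the rhau_sko_DRB libraries, against 2.35 and 2.86 CPM in c and 4.56 CPM in c_DRB. The lowest sko library was far above the highest c library, and the log2 fold change was 2.76 ± 0.20 (SE; edgeR adjusted p = 4.4e-06). Its share of the subunit 4 genes per length was 8.54% to 9.63% in the sko libraries, against 0.943% to 1.34% in the c libraries. Cox7a2l read 353 CPM in rhau_sko and 334 and 370 CPM with DRB, against 210 and 205 CPM in c and 197 CPM in c_DRB (log2 fold change 0.80 ± 0.10, SE). Atp5c1, the rotating gamma subunit of complex V, read 315 CPM in rhau_sko and 402 and 379 CPM with DRB, against 216 and 230 CPM in c and 222 CPM in c_DRB (0.65 ± 0.11). It was the only member called in opposite directions in the 2 sko experiments, and its call here was lost in 1 of 12 alternative settings.

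Ndufs4 fell most here as well. It read 45.6 CPM in rhau_sko and 56.1 and 62.9 CPM with DRB, against 109 and 105 CPM in c and 111 CPM in c_DRB (log2 fold change -1.06 ± 0.13, SE; edgeR adjusted p = 0.000116). All sko libraries lay under all c libraries for this gene. Cox6b2, an isoform best known from testis, had a log2 fold change of -0.98 ± 0.19 but read 57.7 CPM in rhau_sko_DRB replicate 8, above the 56.1 CPM of c replicate 2, so the groups overlapped. In complex II, Sdhb and Sdhc, the iron-sulphur subunit and a membrane anchor, fell by 0.52 and 0.49, and the Rieske protein Uqcrfs1 of complex III fell by 0.50. Atp5g2, 1 of 3 genes for the same proton-carrying c subunit of complex V, read 23.6 CPM in rhau_sko and 25.8 and 26.8 CPM with DRB, against 34.0 and 38.4 CPM in c and 44.5 CPM in c_DRB (-0.69 ± 0.14). Of the 17 lower members, 9 had no overlap between the genotypes, as had 7 of the 8 higher ones (52.9% and 87.5%, against 93.3% and 92.7% of all genes called lower and higher).

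These counts leaned on single libraries. Without rhau_sko replicate 5, 9 members were lower and the change of Atp5o was -0.38 (edgeR adjusted p = 0.0901), against -0.67 ± 0.15 with it. The call for Sdhb was lost there too (-0.42, edgeR adjusted p = 0.0576). Without c_DRB replicate 3, 4 members were higher, and Uqcrb and Ndufa12 were at 0.12 and 0.16, against 0.50 each with it. The calls for Atp5g2 (-0.62, edgeR adjusted p = 0.0504), Sdhc (-0.46), Uqcrfs1 (-0.46) and Ndufv1 (-0.44) were lost without that library as well. With genotype alone as a term, 9 were lower and 10 higher, and with all 8 libraries, 6 were lower and 4 higher. Granulosa and cumulus markers took 0.00780% to 0.0135% of counts in the sko libraries, against 0.00382% to 0.00644% in the c libraries, with 3 of 7 tested genes higher and Amh at 0 in all 6. Oocyte markers took 0.777% to 0.987% in the sko libraries, against 1.24% to 1.38% in the c libraries, with 6 of 11 lower and 1 higher. Transcripts of the mitochondrial genome took 0.302% to 0.633% of counts in the sko libraries, against 0.126% to 0.170% in the c libraries. The part of these differences in the members' changes was not tested.

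**Figure D3:**
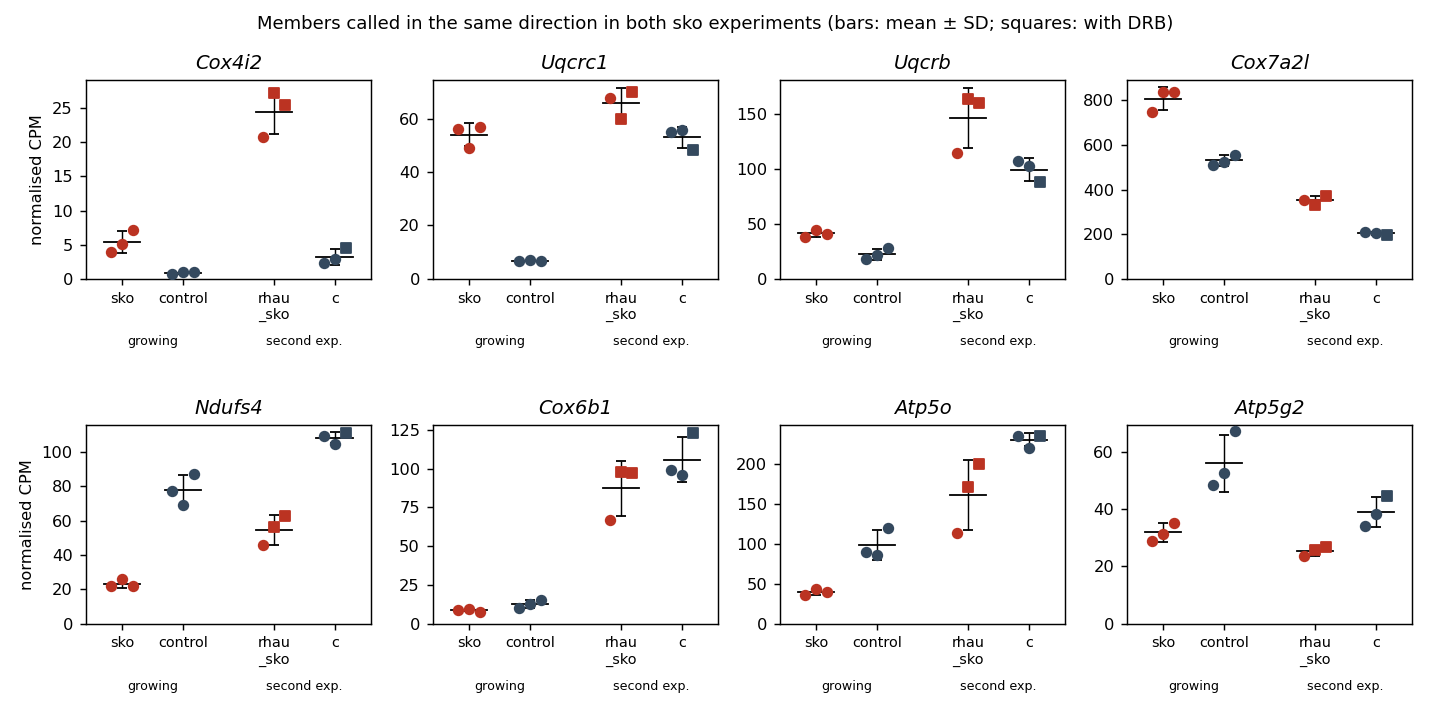
Normalised CPM (linear y axis from 0) of 8 members called in the same direction in both sko experiments, by library, with sko left of its control; squares are libraries with DRB, and the bars give the mean ± SD of 3 libraries. Uqcrc1 is at 6.66 to 7.10 CPM in growing controls and at 48.4 CPM or more in the other 3 groups, while Ndufs4 and Cox6b1 have lower means in sko in both experiments.

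The 2 sko experiments share no library, so their changes could be set side by side over 83 members. Of these, 62 had the same sign in both (74.7%, against 74.6% of the 13839 genes tested in both), so the members were at the level of all genes. Calls alike in both were made for 7.23% of members as higher and 9.64% as lower, against 14.2% and 12.9% of all genes. The 6 called higher in both were Cox4i2, Cox4nb, Cox7a2l, Ndufa12, Uqcrb and Uqcrc1, which are 85.7% of those higher in growing oocytes and 75% of those higher in the second experiment. The 8 called lower in both included Atp5g2, Atp5o, Cox6b1, Ndufa6, Ndufb5, Ndufs4 and Ndufv1, and are 30.8% of those lower in growing oocytes and 47.1% of those lower in the second experiment. Across the 83 genes, which are not independent replicates, Pearson's r was 0.68 and Spearman's rho 0.55.

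A fit of all 12 libraries tested whether the sko change of a member differed between the experiments, and 8 of 84 members passed (9.52%, against 12.5% of the 17437 genes tested), 3 of them higher and 5 lower. DESeq2 gave 12 lower. Leaving out growing control replicate 1, 2 or 3 or sko replicate 5 gave 9 to 11 lower, and leaving out c_DRB replicate 3 gave 2. Leaving out growing control replicate 1 or 2, sko replicate 4, 5 or 6, c replicate 1 or 2, or rhau_sko replicate 5 gave 1 higher. The difference in Uqcrc1 was 2.65 ± 0.18 on the log2 scale (growing minus second experiment; SE; edgeR adjusted p = 1.35e-07). In the second experiment Uqcrc1 read 67.8 CPM in rhau_sko and 59.8 and 70.1 CPM with DRB, against 55.1 and 55.5 CPM in c and 48.4 CPM in c_DRB. The groups did not overlap, yet the change was 0.36 ± 0.12 (edgeR adjusted p = 0.0427) and lost its call in 9 of 12 alternative settings. Per length, Uqcrc1 was at 81.6 ± 8.33 TPM in growing sko and 8.83 ± 0.505 TPM in growing control (SD, n = 3 each), and at 77.2 ± 0.422 TPM in c (SD, n = 2). It read 19.6, 15.0 and 18.7 CPM in GV_C and 12.9, 6.89 and 6.79 CPM in the Trim controls, also below c. These CPM values are scaled within each experiment. Atp5c1 (-1.16 ± 0.16) and Ndufa9 (-1.13 ± 0.17) also differed, and kept their calls in all 16 alternative settings, as did Uqcrc1. The 5 others were Ndufb3, Ndufc2 and Ndufs4, which lost their calls without c_DRB replicate 3 (-0.69, -0.64 and -0.50), and Cox6b2 and Sdhb, which lost them in 11 of 16 settings each. Ndufa9, which fell in growing oocytes, had a change of -0.10 ± 0.11 in the second experiment.

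**Figure D4:**
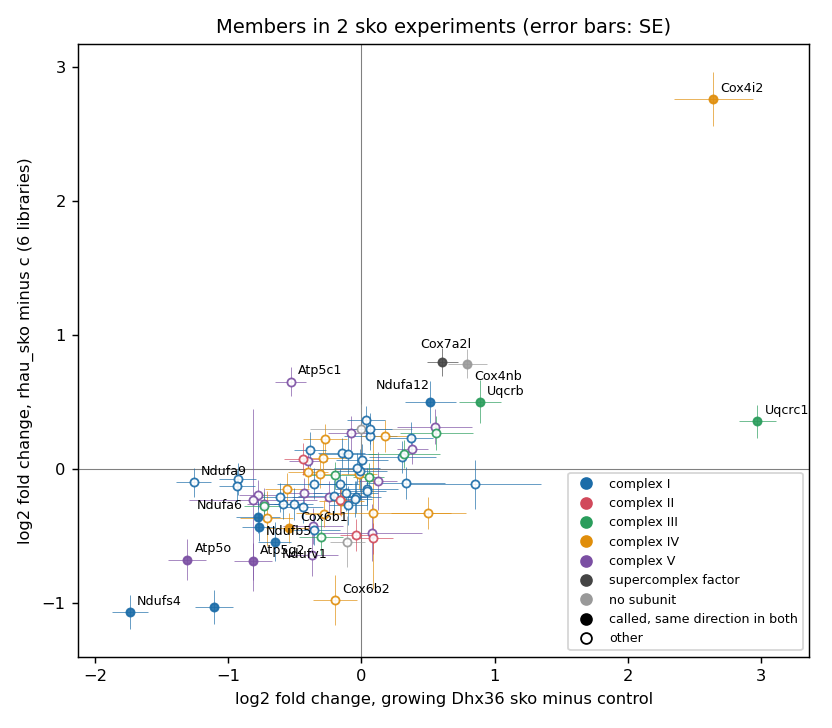
Log2 fold change of each member in growing oocytes (x axis, sko minus control) against the second experiment (y axis, rhau_sko minus c), with SE bars and colours by complex; filled points were called in the same direction in both. Cox4i2 lies high in both, Uqcrc1 at 2.98 and 0.36, and Ndufs4 and Atp5o in the lower left.

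With DRB, no member passed the threshold. Of 84 members tested with genotype as a term, 0 were called by edgeR, against 0.0119% of the 16784 genes (2 genes), and the smallest adjusted p of a member was 0.147. At an unadjusted edgeR p under 0.05, 47 members were higher (56.0%, against 6.04% of all genes) and 0 lower (against 6.46%). A positive change stood in 74 of the 84 (88.1%, against 50.1% of all genes). The members' median was 0.34, against 0.00 over all genes. DESeq2 called 26 of 81 members with an adjusted p higher (32.1%, against 2.60% of all genes) and 0 lower (against 2.62%). Without the filter on low counts, edgeR called 18 of 85 higher (21.2%, against 1.04%) and 0 lower. Cox6a1, the ubiquitous isoform of complex IV subunit 6A, had the smallest p. It read 261 CPM in c_DRB and 282 and 255 CPM in rhau_sko_DRB, against 184 and 202 CPM in c and 178 CPM in rhau_sko. The libraries with DRB were all above those without, and the log2 change was 0.52 ± 0.11 (SE; edgeR adjusted p = 0.147). Atp5e (epsilon subunit of complex V) and Ndufa13 had changes of 0.71 ± 0.16 and 0.57 ± 0.13, also not called. Complex II had the smallest median of the 5 complexes at 0.05, against 0.35 in complex I and 0.38 in complex IV. The 3 DRB libraries held 2 of sko and 1 of c, the 3 without DRB 1 of sko and 2 of c.

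In GV oocytes labelled cPDS for 12 h, most members changed, in both directions, and the falls were larger than the rises. Of 84 tested, 31 were higher (36.9%, against 23.4% of the 16115 genes tested) and 25 lower (29.8%, against 27.4%). Either direction came to 56 (66.7%), against 50.8% of all genes. The higher members had a median log2 fold change of 0.35 and none above 0.93. The lower ones had a median of -0.76 and reached -2.20. At least 2-fold lower were 8 members (9.52%, against 12.7% of all genes), and at least 2-fold higher were 0 (against 1.60%). Larger falls than rises were thus also seen over all genes. The median level per length in GV_C was 186 TPM for the higher and 190.4 TPM for the lower members.

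Atp5g2 (chromosome 15, 102493299 to 102501478, minus strand) fell most. It read 8.14, 9.06 and 8.80 CPM in cPDS, against 38.6, 36.1 and 44.3 CPM in GV_C. The groups were far apart, with a log2 fold change of -2.20 ± 0.11 (SE; edgeR adjusted p = 1.93e-10), which is 4.58-fold lower. The other 2 genes of the c subunit rose, Atp5g1 by 0.32 ± 0.07 and Atp5g3 by 0.31 ± 0.12, the second a call lost in 7 of 11 settings, among them leaving out GV_C replicate 1 (0.22) or any of 3 other libraries (0.27 to 0.34). Atp5g2 was 18.8% to 19.1% of the summed length-scaled level of the 3 genes in cPDS, against 54.4% to 59.4% in GV_C, and Atp5g1 was 71.0% to 73.1%, against 36.1% to 40.5%. These shares depend on annotated exon lengths of 647 bases for Atp5g2, 4908 for Atp5g1 and 2181 for Atp5g3. Without length scaling Atp5g1 was the highest of them in both groups, at a mean of 201 CPM in GV_C, against 39.7 CPM for Atp5g2. The rest of complex V held 3 more lower members, Atp5b (-1.06 ± 0.08), Atp5f1 (-0.56 ± 0.06) and Atp5a1 (-0.46 ± 0.07), beside the rises of the delta subunit Atp5d (0.84 ± 0.09), Atp5l (0.37 ± 0.08), Atp5o (0.35 ± 0.07) and Atp5c1 (0.32 ± 0.06). Atp5b read 199, 177 and 169 CPM in cPDS, against 401, 344 and 392 CPM in GV_C, without overlap.

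Complex I split evenly, with 12 members lower and 12 higher of 36. Ndufs5 (chromosome 4, 123389953 to 123395445, minus strand), an accessory subunit on the outer side of the membrane arm, read 23.3, 24.4 and 20.9 CPM in cPDS, against 93.9, 102.4 and 100.1 CPM in GV_C (log2 fold change -2.12 ± 0.09, SE; edgeR adjusted p = 2.95e-11). Ndufa8, which lies on the same side, fell by 1.18 and read 94.4, 83.2 and 78.7 CPM in cPDS, against 181.5, 207.8 and 192.4 CPM in GV_C. Neither gene had an overlap. Of the core subunits, Ndufv1 (-1.23 ± 0.11), Ndufs3 (-1.17 ± 0.09) and Ndufs1 (-0.64 ± 0.10) fell, whereas Ndufs7 (0.41 ± 0.07) and Ndufv2 (0.18 ± 0.07) rose. The call for Ndufv2 was lost in 7 of 11 settings, among them without GV_C replicate 1 (0.15, edgeR adjusted p = 0.104). Ndufab1, the mitochondrial acyl carrier protein, read 403, 394 and 403 CPM in cPDS, against 274, 308 and 292 CPM in GV_C (0.46 ± 0.06), the largest rise in complex I.

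In complex II, the flavoprotein Sdha (chromosome 13, 74459702 to 74487728, minus strand), which oxidises succinate, read 41.0, 39.3 and 38.1 CPM in cPDS, against 129.2, 101.0 and 120.9 CPM in GV_C. Every cPDS library lay far below every GV_C library, with a log2 fold change of -1.57 ± 0.09 (SE; edgeR adjusted p = 1.49e-09). Of the membrane anchors, Sdhc fell by 0.76 and Sdhd rose by 0.30 ± 0.06, and the iron-sulphur subunit Sdhb was at 0.15 ± 0.07 and not called. In complex III, the core proteins Uqcrc1 and Uqcrc2 fell by 0.97 and 0.88 while the Rieske protein Uqcrfs1 rose, at 69.4, 71.0 and 72.0 CPM in cPDS, against 51.2, 48.8 and 51.5 CPM in GV_C (0.49 ± 0.07). In complex IV, 8 members rose and 3 fell. Cox5a, a subunit on the matrix side, read 235, 219 and 226 CPM in cPDS, against 126, 151 and 148 CPM in GV_C (0.68 ± 0.08), and Cox6a1 fell by 0.88. Cox8c, an isoform of testis, had the largest fold (0.93 ± 0.27) at a low level, 2.58, 2.52 and 2.22 CPM in cPDS, against 1.19, 1.79 and 0.852 CPM in GV_C. Of the 20 subunits picked as core or catalytic, 7 were higher and 9 lower, and the higher ones include Cox5a and Cox5b, which are not core subunits.

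All but 1 of the 31 higher members and all but 2 of the 25 lower ones had no overlap between the groups (96.8% and 92.0%, against 95.2% and 97.4% of all genes called higher and lower). Of the 8 members with the NRF1 letters in their start window, Atp5g2, Ndufa8, Uqcrc1, Cox6a1 and Uqcr11 were lower, Ndufa11 and Atp5l were higher and Atp5k was not called. Among all members tested, 29.8% were lower and 36.9% higher. The other letters and comparisons were not split in this way, and a link between the letters and the changes was not tested. Granulosa and cumulus markers took 0.00649% to 0.00749% of counts in cPDS, against 0.00933% to 0.00969% in GV_C, with 3 of 9 tested genes lower and Ptx3 at 0 in all 6 libraries, and oocyte markers took 2.48% to 2.88%, against 1.86% to 2.24%. Immune, endothelial and blood markers, with 1 of 3 tested genes lower and 0 higher, took 0.00152% to 0.00161% in cPDS, against 0.00559% to 0.00599% in GV_C. Their part in the members' changes was not tested.

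**Figure D5:**
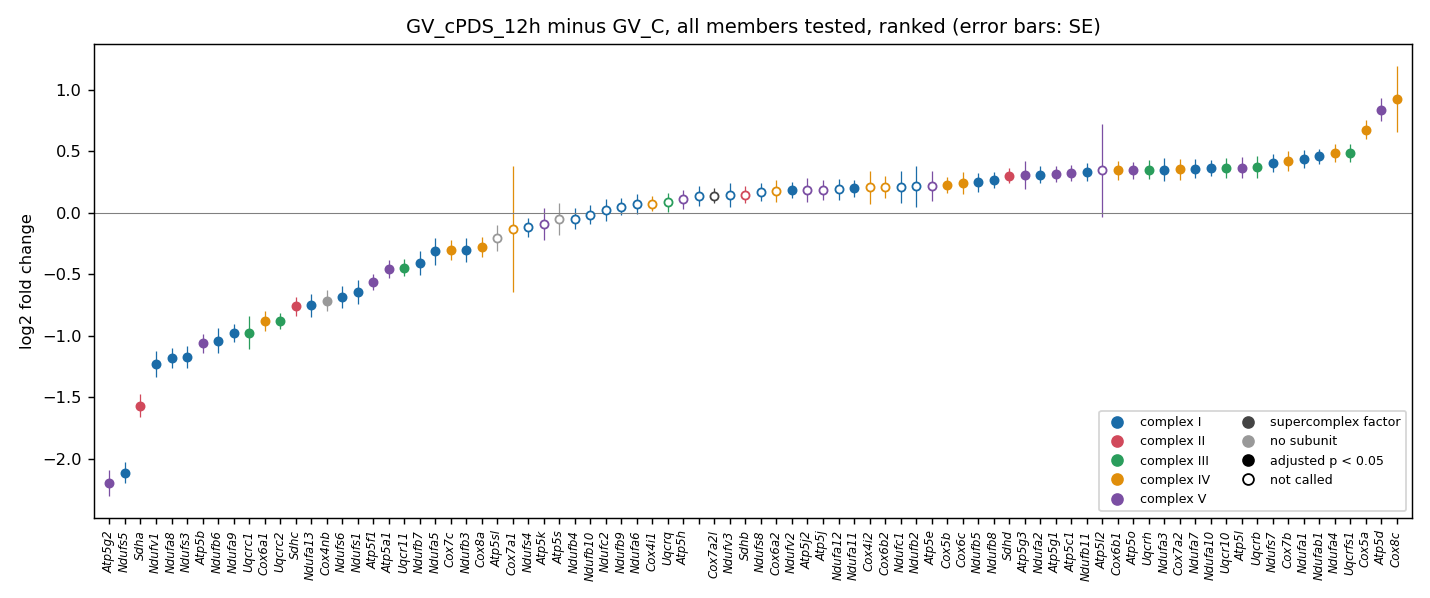
Log2 fold change (y axis, cPDS minus GV_C) of the 84 members tested, ranked along the x axis with 1 left without a name, with SE bars, coloured by complex and filled where called. Atp5g2, Ndufs5 and Sdha head the low tail, which is deeper than the high end led by Cox8c, Atp5d and Cox5a.

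At 3 h in the Trim21 libraries, few members changed. Of 83 tested, 5 were lower (6.02%, against 5.23% of the 14191 genes tested) and 0 higher (against 6.26%), so 5 were called in either direction (6.02%, against 11.5%). By an unadjusted edgeR p under 0.05, 3 members were higher (3.61%, against 12.8% of all genes) and 16 lower (19.3%, against 11.8%). DESeq2 called 1 member higher and 7 lower (8.43%), against 999 higher and 865 lower of all 16643 genes with an adjusted p. The members' median was -0.13, against -0.01 over all genes. Cox6b1 (chromosome 7, 31401993 to 31411170, minus strand), the ubiquitous isoform of complex IV subunit 6B, read 86.2, 87.4 and 91.9 CPM in Trim21, against 145.2, 137.0 and 144.3 CPM in control. Each Trim21 library was under each control, and the log2 fold change was -0.68 ± 0.11 (SE; edgeR adjusted p = 0.00118). Ndufc2 read 144.5, 173.0 and 151.7 CPM in Trim21, against 231.6, 257.7 and 229.5 CPM in control (-0.62 ± 0.11). Uqcrq of complex III (-0.50 ± 0.11) and Ndufa11 and Ndufa13 of complex I (-0.49 ± 0.13 and -0.44 ± 0.11) were the other 3, also without overlap (as 99.3% of all genes called lower), and lost their calls in 1, 3 and 4 of 11 settings. Without Trim21 replicate 3 all of these 3 were lost (-0.44, -0.39 and -0.44; edgeR adjusted p = 0.0623, 0.138 and 0.0815).

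The members that stood out in the sko experiments were not called here. Cox4i2 was at 0.58 ± 0.29 and Ndufs4 at -0.18 ± 0.11. Uqcrc1 read 17.1, 7.50 and 22.5 CPM in Trim21, against 12.9, 6.89 and 6.79 CPM in control, with overlap (0.86 ± 0.35). Cox7a2l read 195, 166 and 186 CPM in Trim21, against 143, 139 and 149 CPM in control, all apart but not called (0.35 ± 0.11; edgeR adjusted p = 0.0575). Without Trim control replicate 3 or Trim21 replicate 1, 3 members were lower, and without Trim21 replicate 3, 2 were. Granulosa and cumulus markers took 0.00475% to 0.00551% of counts in Trim21, against 0.00299% to 0.00318% in control, with Amh and Foxl2 at 0 in all 6 libraries, and their part was not tested.

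Across the 5 comparisons, Atp5g2, Cox6b1 and Ndufv1 were each called lower in 3 and Uqcrb higher in 3, while 14 members were called in none. Those include Cox7b2 and Cox8b, which were not tested in any. Matching counts over all genes are not given here. Of all genes, 53.7% were called in growing sko, 36.0% in rhau_sko, 50.8% in cPDS and 11.5% in Trim21, so repeated and opposite calls can be common. Calls in both directions were made for 16 members. Atp5o fell in both sko experiments and rose in cPDS (0.35 ± 0.07), Cox4nb rose in both and fell in cPDS (-0.71 ± 0.08), and Uqcrc1 rose in both and fell in cPDS. Cox6b1, lower in both sko experiments and in Trim21, rose in cPDS (0.35 ± 0.08). Its call in growing oocytes was lost without control replicate 3 (-0.43, edgeR adjusted p = 0.0564) or sko replicate 6 (-0.47, edgeR adjusted p = 0.0662), and that in rhau_sko without rhau_sko replicate 5 (-0.36, edgeR adjusted p = 0.0884). Exons of 18 members overlap those of another gene, and the strand setting of the counting is not given in the sources used here. Among the members named above this concerns Atp5o, Atp5d, Atp5f1, Cox5a, Ndufa2, Ndufa13, Ndufb11, Ndufs1, Ndufs3, Uqcrb, Uqcrc2, Ndufb5 and Ndufb8, whose counts are uncertain.

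Genes that work beside the members moved as follows. Over all genes tested, 25.2% were lower and 28.5% higher in growing sko, 16.8% and 19.2% in rhau_sko, 27.4% and 23.4% in cPDS, and 5.23% and 6.26% in Trim21. The list counts that follow stand beside these shares and were not tested as sets. Of the mitochondrial ribosomal protein genes, 32 of 74 tested were lower and 10 higher in growing sko, 23 and 8 of 75 in rhau_sko, 22 and 27 of 75 in cPDS, and 5 and 0 of 75 in Trim21. Of 17 genes of the TCA cycle, which feeds complexes I and II, 8 were lower and 1 higher in growing sko, 6 and 2 in rhau_sko, 7 and 2 in cPDS, and 0 and 1 in Trim21. Idh3g, a subunit of the NAD-dependent isocitrate dehydrogenase, fell in both sko experiments, by 1.01 and 0.91, and Dlst of the oxoglutarate dehydrogenase complex averaged 10.3 ± 0.684 CPM in cPDS and 68.0 ± 9.21 CPM in GV_C (SD, n = 3 each; log2 fold change -2.72 ± 0.11). Of 12 electron carriers and quinone enzymes, 9 were lower and 1 higher in cPDS, among them Etfa, which takes electrons from fatty acid oxidation (-2.05 ± 0.08), against 6 lower and 2 higher in growing sko, 3 and 2 in rhau_sko, and 0 and 2 in Trim21.

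Assembly factors of the complexes had 7 lower and 5 higher of 27 tested in growing sko, 5 and 5 in rhau_sko, 5 and 10 in cPDS, and 2 and 2 in Trim21, where Ndufaf2, which assists complex I, fell by 1.41. Of 14 genes for import, carriers and pores, 4 were lower and 5 higher in growing sko, 5 and 3 in rhau_sko, 8 and 5 in cPDS, and 0 and 1 in Trim21. Tomm20 rose by 2.57 ± 0.14 in growing sko. Slc25a5, an ADP/ATP carrier, fell by 1.46 in growing sko and by 1.20 in rhau_sko, and the outer membrane pore Vdac1 fell by 3.13 in cPDS. Of the regulators of mitochondrial biogenesis, 3 were lower and 8 higher of 16 tested in growing sko, 5 and 4 in rhau_sko, 3 and 2 in cPDS, and 0 and 1 of 15 in Trim21. Tfam, which packs and transcribes mitochondrial DNA, averaged 48.8 ± 1.05 CPM in growing sko and 21.7 ± 1.17 CPM in control, and 15.8 ± 1.27 CPM in cPDS and 27.3 ± 2.16 CPM in GV_C (SD, n = 3 each). Gabpa, whose exons overlap those of Atp5j, averaged 5.94 CPM in growing sko and 0.823 CPM in control (log2 fold change 2.83 ± 0.28, SE). In rhau_sko, Yy1 rose by 1.29 ± 0.18 and Ppargc1a, at a low level, by 3.72 ± 0.53. In Trim21 the regulator that rose was Nrf1 (0.69 ± 0.14). With DRB, 0 genes of these lists were called.

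The 13 protein genes of the mitochondrial genome, encode the partners of these subunits. In rhau_sko, 10 of 11 tested were higher and 0 lower, with a median log2 fold change of 1.68, while the nuclear members had a median of -0.12. In growing sko, 1 of 13 was higher and 5 lower (median -0.42), in cPDS 2 of 13 were higher and 0 lower (median 0.38), and in Trim21 0 of 9 were called. For mt-Co1, the catalytic subunit of complex IV, the mean was 543 ± 231 CPM in the rhau_sko libraries and 135 ± 26.5 CPM in the c libraries (SD, n = 3 each; log2 fold change 1.85 ± 0.22). The sko change of 10 of the 13 genes differed between the experiments (against 12.5% of all genes), lower in growing oocytes in each. Counts of these transcripts depend on how much of them carries a poly(A) tail, since the labels name poly(A) RNA.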

How the data were processed

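RNA was sequenced from mouse oocytes. The deposited files hold whole-number counts of reads per gene, with exon coordinates, per the headers of these deposited tables. Tools named by the submitters' processing notes are featureCounts 2.0.1, STAR 2.5.2b, HISAT2 2.1.0, fastp 0.21.0 and cutadapt 1.15, with build mm9, without saying which made which table. The sources used here give no strand or multi-mapping setting. The Trim experiment has a table of its own, whose 37310 features were matched to the first table by identical exons and strand. The tables were tested apart, and levels set across them share no normalisation.

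Counts were filtered with filterByExpr (minimum count 10), scaled by TMM and tested with edgeR 4.0.16 in R 4.3.3 (quasi-likelihood, two-sided), with Benjamini-Hochberg adjustment over all genes tested and a threshold of 0.05. SE is the log2 fold change divided by the square root of F. The second experiment had genotype and DRB as terms, and the difference between the sko experiments was the interaction over 12 libraries. Normalised CPM uses the TMM library size. TPM here is the count per exon length, scaled to a library sum of 1000000, with no pseudocount. Precision follows the total counts given above.

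c_DRB replicate 4 and rhau_sko replicate 6, with 129192 and 127927 counts, were left out, as the selection asks, and enter an alternative with all 8 libraries. Other alternatives were DESeq2 1.42.0, DESeq2 size factors, library size alone, no filter, leaving out each library, and the replicate number as a block. Members named were up to 6 called with the largest rise and 6 with the largest fall in each comparison. Where fewer than 3 were called, the 3 with the smallest p were named. Also named were the subunits picked as core or catalytic, isoform families, and members called alike in 3 or more comparisons or in both directions. The 3 highest and lowest per length were named too. From each other list, the 2 called genes with the smallest p in each comparison were picked out, and only some of these are named. Further members were named after their values were seen. The members and lists were chosen with earlier results of these data known. All 26 library columns were matched to samples by name, with 0 left over. 1 member is not reported by name here.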

Additional observations from a re-analysis of the deposited data

Results flagged for a closer look

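The sko change of 8 of 84 members (9.52%, against 12.5% of the 17437 genes tested) differed between the growing oocytes and the second experiment. The test was the interaction over 12 libraries (log2, growing minus second experiment, SE). Uqcrc1 differed by 2.65 ± 0.18, with changes of 2.98 in growing oocytes and 0.36 in the second experiment. Atp5c1 differed by -1.16 ± 0.16, with -0.53 in growing oocytes and 0.65 in the second experiment, and Ndufa9 by -1.13 ± 0.17, with -1.26 and -0.10. Ndufb3 differed by -0.82 ± 0.19, Ndufc2 by -0.78 ± 0.19 and Ndufs4 by -0.65 ± 0.19, calls that were lost without c_DRB replicate 3 (-0.69, -0.64 and -0.50). Cox6b2 differed by 0.81 ± 0.26 and Sdhb by 0.63 ± 0.18, both with a lower value in the second experiment. The calls for Cox6b2 and Sdhb were lost in most alternative settings, as given above. The second experiment also holds libraries with DRB, and its sample titles name no stage. Whether the experiments differ in stage or handling was not tested, and such differences cannot be told apart from DRB here.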

How the results depend on the processing

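No alternative reversed a called direction among 72 combinations of comparison and setting. With library size alone, growing oocytes had 15 members lower, and the difference between the sko experiments had 3 lower. With DESeq2, DRB had 26 higher, Trim21 1 higher and the difference 12 lower; with DESeq2 size factors the difference had 1 higher and 9 lower. Without the low-count filter, DRB had 18 higher, and Trim21 1 higher and 8 lower. In rhau_sko, genotype alone gave 9 lower, and all 8 libraries 4 higher and 6 lower. The cause of these shifts was not tested.

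Leaving out 1 library at a time gave 5 to 11 higher and 21 to 33 lower in growing oocytes, 4 to 8 higher and 9 to 19 lower in rhau_sko, and 26 to 40 higher and 21 to 25 lower in cPDS. It gave 0 to 1 higher and 2 to 6 lower in Trim21, and 1 to 3 higher and 2 to 11 lower for the difference. For DRB it gave 0 calls each time. Where it leaves 1 library in an arm, that library is assumed to vary like the others.

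Replicate numbers did not pair samples: correlations of same-numbered deviations were -0.06, -0.03 and -0.04 in the cPDS experiment and 0.07, 0.09 and -0.05 in the Trim experiment. With the replicate block, cPDS had 28 higher and 25 lower, and Trim21 1 higher and 8 lower. No block was possible for the sko experiments, whose groups share no replicate number. Low counts leave Cox8b and Cox7b2 untested in all comparisons.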
